A study of Mus musculus with 6 samples.

Results

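Chemokine transcripts were examined in 6 bulk RNA-seq libraries of cultured mouse pancreatic acini, the enzyme-secreting units of the exocrine pancreas. The 10 chemokine genes described here, Cxcl1, Cxcl2, Cxcl5, Cxcl10, Cxcl12, Cxcl16, Ccl2, Ccl7, Ccl20 and Cx3cl1, were found by symbol among 56953 genes of the count table, and 9 of them were among the 14738 genes abundant enough to test. Cxcl10 was the exception. All cultures were harvested at day 3 of an ex vivo assay of acinar-to-ductal metaplasia (ADM), in which explanted acini in Matrigel turn into duct-like structures. The medium of every culture held 10% serum and 10 µg/ml dexamethasone, a glucocorticoid.

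The 6 libraries formed 3 groups of 2. WT acini came from wild-type mice labelled 10 and 11 weeks old, DD acini from Dkk3 knockout mice labelled 12 and 13 weeks old, and DD + rDKK3 acini from knockout mice labelled 14 and 15 weeks old, treated with recombinant soluble DKK3 and called with rDKK3 where values are listed. The knockout allele replaces exon 2, which encodes the secretion signal, in every cell of the animal, and an intracellular product of the locus is thought to remain. Each library is labelled exactly 1 week older than the one before it, so it is uncertain that the ages were recorded. As labelled, age and group cannot be told apart. Whole-gene Dkk3 counts do not test the deletion of 1 exon. WT had 10 and 1 of them, DD 11 and 9, and DD + rDKK3 5 and 5. Library totals ran from 12018473 to 19750401 counts. Expression is given as CPM, counts per 1000000 counts of a library after TMM scaling (trimmed mean of M values). The acinar label fitted the summed CPM of 12 acinar markers, 92210 to 158800 per library. Library WT 2 was the only library labelled female, and its transcripts went against that label in part, with 16 counts of Xist beside 50.71 CPM of the Y-linked Ddx3y. The libraries labelled male had 0 counts of Xist and 35.04 to 47.32 CPM of Ddx3y.

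Chemokines are small secreted proteins that draw leukocytes along a gradient by engaging G protein-coupled receptors. Cxcl1, Cxcl2 and Cxcl5 encode ligands of CXCR2, the main chemoattractant receptor of neutrophils, and Ccl20 encodes the ligand of CCR6 on dendritic cells and lymphocytes. Ccl2 and Ccl7 encode ligands of CCR2, which brings monocytes out of the bone marrow and into tissue. Cxcl12 signals through CXCR4, Cxcl10 through CXCR3 on activated T cells, and Cxcl16 and Cx3cl1 are made as membrane-anchored proteins that can be shed. Injured acinar cells are known to release neutrophil and monocyte chemokines in pancreatitis, and many of these genes are induced by NF-kB and restrained by glucocorticoids.

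The promoters of 3 chemokines that shared their highest library, Cxcl1, Cxcl2 and Ccl20, are shown to set their sequence beside the counts, with that of Cxcl10, which was barely detected. RefSeq promoter windows were found for 6 of the 10 genes (Ccl20, Cx3cl1, Cxcl1, Cxcl10, Cxcl12 and Cxcl2). Their start of transcription lay 4 bases inside the gene bounds of the count table for Cxcl1, 28 for Cxcl2 and 171 for Cx3cl1. For Ccl20, Cxcl10 and Cxcl12 it matched the bound. The 250 bases before the start of transcription are given 5′ to 3′ on the strand of the gene, with bases that match the NF-kB consensus in capitals. They come from the RefSeq table for GRCm38.p6, and each was found once by exact match in GRCm39, at chr5:91038854-91039103 (plus strand) for Cxcl1, chr5:91051508-91051757 (plus strand) for Cxcl2, chr1:83094237-83094486 (plus strand) for Ccl20 and chr5:92496749-92496998 (minus strand) for Cxcl10.
Cxcl1: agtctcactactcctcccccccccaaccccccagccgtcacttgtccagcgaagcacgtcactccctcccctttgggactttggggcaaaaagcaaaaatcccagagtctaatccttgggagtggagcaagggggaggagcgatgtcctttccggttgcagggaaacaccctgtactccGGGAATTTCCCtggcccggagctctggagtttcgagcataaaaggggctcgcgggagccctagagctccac
Cxcl2: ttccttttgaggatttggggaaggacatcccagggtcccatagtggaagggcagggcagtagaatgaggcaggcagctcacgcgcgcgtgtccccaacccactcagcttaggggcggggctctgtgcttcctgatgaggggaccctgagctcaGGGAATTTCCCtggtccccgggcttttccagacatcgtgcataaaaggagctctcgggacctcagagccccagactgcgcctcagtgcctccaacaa
Ccl20: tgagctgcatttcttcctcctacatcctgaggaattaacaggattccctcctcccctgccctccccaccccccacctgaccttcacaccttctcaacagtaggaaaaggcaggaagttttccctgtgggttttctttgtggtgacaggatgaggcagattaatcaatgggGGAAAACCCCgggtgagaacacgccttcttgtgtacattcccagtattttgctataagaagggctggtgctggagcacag
Cxcl10: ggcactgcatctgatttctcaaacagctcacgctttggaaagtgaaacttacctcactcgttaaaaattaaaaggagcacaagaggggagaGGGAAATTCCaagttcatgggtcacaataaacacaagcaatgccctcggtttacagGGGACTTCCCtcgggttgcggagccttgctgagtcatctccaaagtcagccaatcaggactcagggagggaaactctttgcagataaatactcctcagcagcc

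The consensus was searched on both strands of the whole windows, from 250 bases before to 50 after the start. Cxcl1 held it from -71 to -62 and Cxcl2 from -97 to -88, counted back from the start of transcription, and the matched letters GGGAATTTCC were the same in both. A match shifted by 1 base on the other strand overlapped each of them. Ccl20 held a match from -80 to -71 on the minus strand. Cxcl10, whose transcript was at the detection floor, held matches from -159 to -150 and from -103 to -94. In all, 4 of the 6 windows held the consensus, as did 1480 of 32851 promoter windows of the same length, 4.51%. The windows of Cxcl12 and Cx3cl1 held none. AP-1 (TGANTCA, 7.81% of all promoters) and ISRE-like letters (GAAA, any 2 bases and GAAA again, 3.44%) were found in Cxcl10 alone of the 6, TATAAA (13.6%) in Cx3cl1 alone of the 6, and a C/EBP-like motif (TTGCNNAA, 10.8%) in none of the 6. The TATAAA of Cx3cl1 lay from -6 to -1, counted back from a start 171 bases inside its gene bounds. A match describes letters in a window and not a bound site.

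Levels of the 10 genes were compared after division by exon length, as CPM per kilobase (RPKM). Cxcl16 was the most abundant of the 10 in every library except WT 2, where Cxcl5 reached 55.57 RPKM. Its median over the 6 libraries was 20.4 RPKM (range 16.47 to 23.24), and among the other 9 genes its lowest value was exceeded only by Cxcl5 and Cxcl1 (17.44) of WT 2. The next medians were 4.242 RPKM for Cxcl12, 4.094 for Cxcl5, 2.792 for Cxcl1, 2.714 for Ccl2, 1.678 for Cxcl2, 1.502 for Ccl7 and 1.162 for Cx3cl1. Each of these genes overlapped the next in the order over its 6 libraries. Ccl20 had a median of 0.3534 RPKM with a range from 0 to 5.091 that overlapped Cx3cl1, and Cxcl10 came last at 0.053 (0.02345 to 0.09553). With only the exons of basic transcripts inside the gene bounds of the count table, chosen after seeing the data, the median of Cxcl16 was 38.7 RPKM and that of Cxcl1 rose to the second place at 5.51. The plot of CPM by library shows 3 kinds of behaviour. Cxcl16, Cxcl12 and Cx3cl1 were nearly level, 4 genes peaked in WT 2, and the pair Ccl2 and Ccl7 peaked in DD 2.

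**Figure D1:**
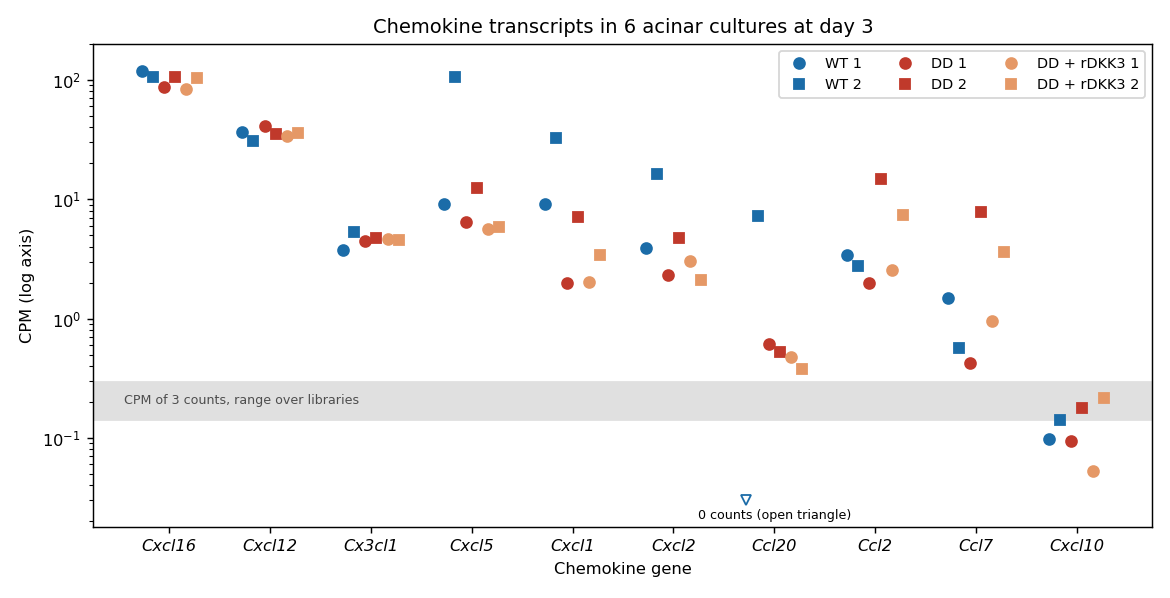
CPM of the 10 chemokine genes (log axis) in the 6 libraries, coloured by group, with circles for library 1 and squares for library 2 of each group; the grey band spans the CPM of 3 counts in the 6 libraries. Cxcl5, Cxcl1, Cxcl2 and Ccl20 were highest in WT 2, Ccl2 and Ccl7 in DD 2, and Cxcl10 lay at or under the band.

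The neutrophil-attracting genes shared 1 outstanding library. Cxcl5 (ENSMUSG00000029371.8, chromosome 5, 90907219 to 90909483, GRCm39) measured 9.136 CPM in WT 1 and 105.4 in WT 2, 6.389 and 12.35 in DD, and 5.598 and 5.809 with rDKK3. WT 1 thus lay between the DD libraries, and WT 2 was 8.53 times the next highest library. The group means were 57.25 ± 68 CPM in WT, 9.367 ± 4.21 in DD and 5.703 ± 0.149 with rDKK3 (SD, n = 2 each).

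Cxcl1 (ENSMUSG00000029380.12, chromosome 5, 91039100 to 91040974) had 9.136 and 32.8 CPM in WT, 1.988 and 7.113 in DD, and 2.007 and 3.388 with rDKK3. Here both WT libraries lay above all 4 Dkk3-null libraries, and WT 2 was 3.59 times WT 1. Cxcl1 averaged 20.97 ± 16.7 CPM in WT, 4.551 ± 3.62 in DD and 2.698 ± 0.977 with rDKK3 (SD, n = 2 each).

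Cxcl2 (ENSMUSG00000058427.11, chromosome 5, 91051730 to 91053797) had 3.93 and 16.3 CPM in WT, 2.319 and 4.703 in DD, and 3.01 and 2.098 with rDKK3. WT 1 was lower than DD 2 and higher than the other Dkk3-null libraries. Its means were 10.11 ± 8.74, 3.511 ± 1.69 and 2.554 ± 0.646 CPM in WT, DD and DD + rDKK3 (SD, n = 2 each).

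Ccl20 (ENSMUSG00000026166.15, chromosome 1, 83094487 to 83096888) was scarce in 5 libraries. It had 0 counts in WT 1, which allows up to 0.2947 CPM, and 103 counts or 7.235 CPM in WT 2. The Dkk3-null libraries lay close together, with 0.6152 and 0.5291 CPM in DD and 0.4753 and 0.3765 with rDKK3. WT 2 therefore exceeded WT 1 at least 24.6-fold, taken against 3 counts in WT 1. The WT mean of 3.617 ± 5.12 CPM (SD, n = 2) described neither of its libraries.

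Few genes in the table set WT 2 apart from all other libraries as these chemokines did. Of 10099 protein-coding genes with 50 or more counts in WT 2, 7 had there at least 3 times the CPM of every other library. Ccl20 ranked 1st of these at 11.8 times the next library, Cxcl5 3rd, Cxcl1 5th and Cxcl2 6th at 3.46 times. The ranking was built after the values had been seen and carries no test. Csf3, which encodes the neutrophil growth factor G-CSF, ranked 2nd, at 3.793 CPM in WT 2 and at most 0.3527 elsewhere. Markers of neutrophils, the cells these ligands attract, were scarce in every library. None of 9 passed the filter, their summed CPM was 0.7024 in WT 2, 1.179 in WT 1, 0.142 to 1.058 in DD and 0.2689 to 0.4753 with rDKK3, and Elane and Retnlg were at 0 in every library. Explanted acini cannot recruit neutrophils from blood, so this scarcity does not bear on the peak. The macrophage and fibroblast marker sums, at 61.67 and 56.12 CPM, were lower in WT 2 than in any other library. In bulk RNA, more cells of a type and more transcript per cell cannot be told apart.

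**Figure D2:**
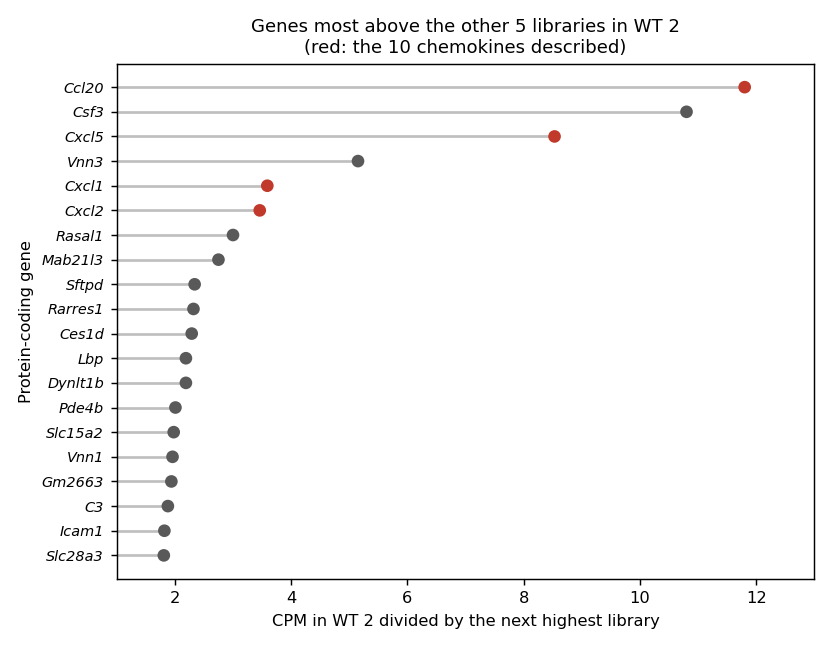
The 20 protein-coding genes with the largest ratio of CPM in WT 2 to the next highest library (horizontal axis), among genes with 50 or more counts in WT 2; red points are chemokines described here and grey points other genes. Ccl20 and Cxcl5 stand at 11.8 and 8.53, and Cxcl1 and Cxcl2 at 3.59 and 3.46.

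Cxcl5, Cxcl1 and Cxcl2 lie within 146579 bases of chromosome 5, in a cluster that holds other CXC genes. Those neighbours did not peak in WT 2. Cxcl3, another CXCR2 ligand, had 3.537 and 2.458 CPM in WT, 0.5206 and 2.998 in DD, and 0.845 and 0.6992 with rDKK3. Ppbp, a platelet chemokine that lies between Cxcl5 and Cxcl1, had 27.41 CPM in WT 1 and 0.07024 in WT 2. Pf4, the platelet factor beside it, was likewise higher in WT 1 (40.67 CPM) than in WT 2 (4.355), and reached 45.56 in DD 2. Ccl20, on chromosome 1, shared the WT 2 peak without sharing the locus.

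Genes with the most similar profile over the 6 libraries were sought by the mean absolute difference of centred log2 CPM. Closest to Cxcl5 were Cxcl2 (0.397) and Cxcl1 (0.532), and closest to Cxcl1 were Ackr3 (0.517), a scavenging receptor for CXCL12, and Cxcl5. Closest to Ccl20 were Vnn3 (0.645), a vanin pantetheinase gene, and Gm2663 (0.791). The heat map of centred log2 CPM shows the CXCR2 ligands between 1.97 and 3.16 above their mean in WT 2, and, of these 3, Cxcl1 alone above its mean in WT 1, by 0.70.

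**Figure D3:**
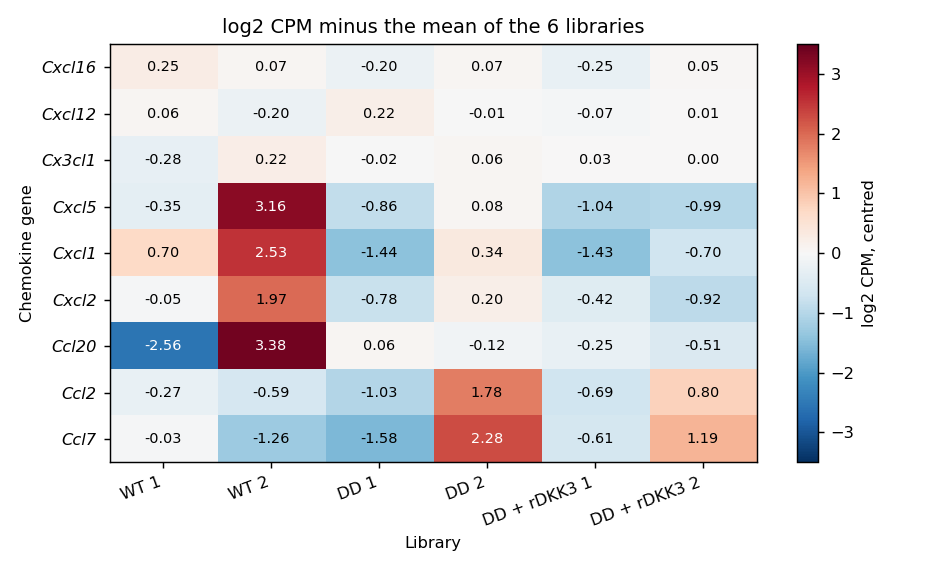
log2 CPM of the 9 tested chemokines in each library minus the mean of that gene over the 6 libraries, with the value in each cell and colour from blue (lower) to red (higher). Cxcl5, Cxcl1, Cxcl2 and Ccl20 were highest in WT 2, Ccl2 and Ccl7 in DD 2 and next in DD + rDKK3 2, and Cxcl16, Cxcl12 and Cx3cl1 stayed within 0.28 of their mean.

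The monocyte-attracting genes followed a different library. Ccl2 (ENSMUSG00000035385.6, chromosome 11, 81926397 to 81928279) had 3.438 and 2.739 CPM in WT, 1.988 and 14.7 in DD, and 2.535 and 7.368 with rDKK3. DD 1 was the lowest of the 6 libraries and DD 2 the highest. The means were 3.089 ± 0.494, 8.342 ± 8.99 and 4.952 ± 3.42 CPM in WT, DD and DD + rDKK3 (SD, n = 2 each).

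Ccl7 (ENSMUSG00000035373.3, chromosome 11, 81936538 to 81938351), which starts 8258 bases past the end of Ccl2, had 1.474 and 0.5619 CPM in WT, 0.4259 and 7.819 in DD, and 0.9507 and 3.603 with rDKK3. Its lowest and highest libraries were those of Ccl2, DD 1 and DD 2. DD 2 exceeded DD 1 by 14.5-fold for Ccl7, the 23rd highest such ratio of 14738 genes, and by 7.03-fold for Ccl2. Ccl11, an eosinophil chemokine and the next gene of the cluster, was likewise lowest in DD 1 and highest in DD 2, with 0.1965 and 0.1405 CPM in WT, 0.04732 and 1.529 in DD, and 0.2113 and 1.129 with rDKK3. Its counts in WT 1, WT 2 and DD 1 were 2, 2 and 1, under the floor of 3. Ccl12, a further CCR2 ligand, was detected in DD 2 (0.5879 CPM) and DD + rDKK3 2 (0.1614) and had 0 counts elsewhere.

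Marker sums of fibroblasts and macrophages were also highest in DD 2 and DD + rDKK3 2. The summed CPM of 12 fibroblast markers was 127.5 and 56.12 in WT, 76.71 and 811.3 in DD, and 166.3 and 891.4 with rDKK3. All 12 were tested and none was at 0 in all libraries. Col1a1, the main fibrillar collagen chain, had 252.1 CPM in DD 2 and 304.6 with rDKK3 2, against 10.54 to 49.8 in the other libraries. The summed CPM of 14 macrophage markers was 153.4 and 61.67 in WT, 74.11 and 285.5 in DD, and 92.95 and 222.5 with rDKK3, and 13 were tested. Neutrophil markers stayed at or under 1.179 CPM in sum and lymphocyte markers at or under 0.9824. The part of fibroblasts or macrophages in the Ccl2 and Ccl7 levels was not tested. The bars of both genes beside both marker sums show the same pair of libraries highest. The macrophage sum was next highest in WT 1 at 153.4 CPM, where Ccl2 had 3.438 CPM and Ccl7 1.474.

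**Figure D4:**
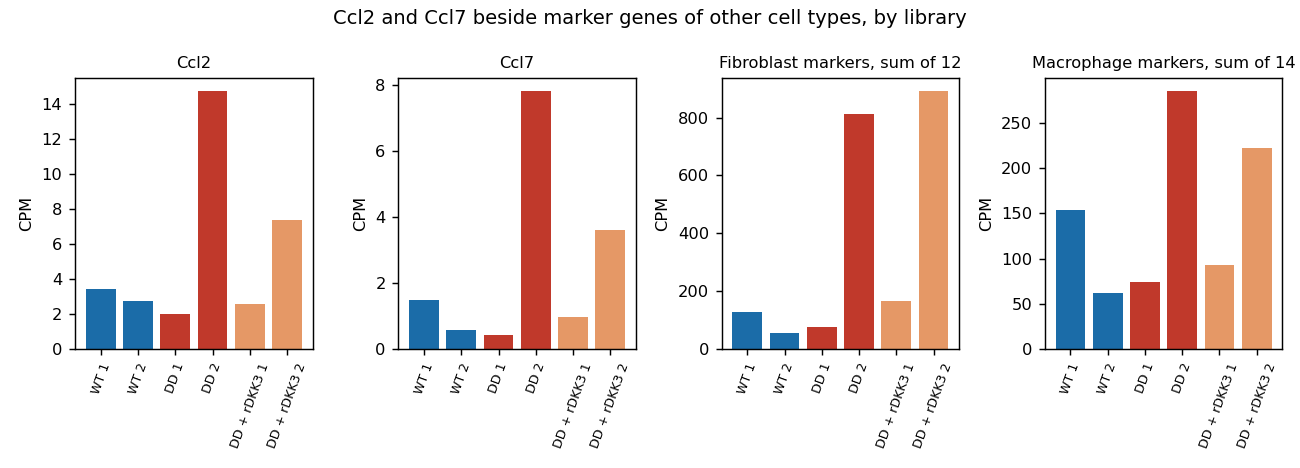
CPM in each of the 6 libraries (bars, linear axes from 0) for Ccl2, Ccl7, the sum of 12 fibroblast markers and the sum of 14 macrophage markers, coloured by group. DD 2 and DD + rDKK3 2 were the highest pair in all 4 panels, with fibroblast sums of 811.3 and 891.4 CPM against at most 166.3 in the other libraries.

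Cxcl16, Cxcl12 and Cx3cl1 varied least across the libraries of the 9 tested members. Cxcl16 (ENSMUSG00000018920.12, chromosome 11, 70344809 to 70350810) had 119.1 and 105.2 CPM in WT, 87.41 and 105.3 in DD, and 84.4 and 103.7 with rDKK3. Cxcl12 (ENSMUSG00000061353.12, chromosome 6, 117145496 to 117158328), a homeostatic chemokine often made by stromal cells, had 36.94 and 30.84 CPM in WT, 41.27 and 35.1 in DD, and 33.8 and 35.71 with rDKK3. Its highest library was 1.338 times its lowest. Cx3cl1 (ENSMUSG00000031778.14, chromosome 8, 95498637 to 95509055), or fractalkine, had 3.733 and 5.338 CPM in WT, 4.496 and 4.762 in DD, and 4.648 and 4.572 with rDKK3.

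Cxcl10 (ENSMUSG00000034855.14, chromosome 5, 92494497 to 92496748), an interferon-induced gene, was at the detection floor, where WT had 1 and 2 counts, DD 2 and 3, and DD + rDKK3 1 and 4. Only DD + rDKK3 2 exceeded 3 counts. A difference between groups was not detectable at this depth, and no fold is given.

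The comparison of DD with WT asked how chemokine transcripts differ when secreted DKK3 is lost. The neutrophil-attracting ligands were lower in DD than in WT and the monocyte-attracting ligands higher, but none of the 9 tested genes was called by edgeR's quasi-likelihood test at a Benjamini-Hochberg adjusted p under 0.05, as were 6 of 14738 genes or 0.0407%. DESeq2 and limma-voom also called 0 members. The log2 fold change of Cxcl1 was -2.23 (SE 0.708, p 0.0145, adjusted p 0.586), a level 4.69-fold lower in DD. For Cxcl5 it was -2.63 (SE 0.906, p 0.0208) and for Cxcl2 -1.55 (SE 0.627, p 0.0401). These were the 3 members with an unadjusted p under 0.05, where 8.26% of all genes tested had one. Cxcl1 was the single member whose groups did not overlap, which held for 37.8% of all genes. Ccl20 stood at -2.67 (SE 1.32, p 0.0788) with a 95% interval from -5.74 to 0.39.

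These differences rested largely on WT 2. Without it, the log2 fold change of DD against WT became -1.01 for Cxcl1, -0.17 for Cxcl2 and 0.03 for Cxcl5. For Ccl20 the direction turned, since WT 1 had 0 counts and the DD mean was at least 1.94-fold over the level of 3 counts in WT 1. Without WT 1, and so with WT 2 as the single WT library, Cxcl5 reached -3.48 and Ccl20 -3.63, at adjusted p-values of 0.18 and 0.211 in the edgeR fit. When low-count genes were kept in the fit, 6 members were called against WT (Cxcl1, Cxcl2, Cxcl5, Ccl20, Ccl2 and Ccl7), among 528 of 26506 genes called in all, and the SE of Cxcl1 fell to 0.28.

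Ccl2 was 1.43 higher in DD on the log2 scale (SE 0.862, p 0.138) and Ccl7 2.04 higher (SE 1.23, p 0.136), both at an adjusted p of 0.598 in edgeR. These directions came from DD 2. Without it, the values were -0.63 for Ccl2 and -1.19 for Ccl7. A fit with a term for library 2 of the knockout groups gave -0.21 and -0.29. These values set the fitted level of library 1 of DD against both WT libraries, and do not estimate the difference between the groups. The intervals of the level genes bounded any change more tightly. The log2 fold change was 0.17 for Cxcl12 (95% interval -0.2 to 0.55), -0.22 for Cxcl16 (-0.64 to 0.2) and 0.02 for Cx3cl1 (-0.6 to 0.64).

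**Figure D5:**
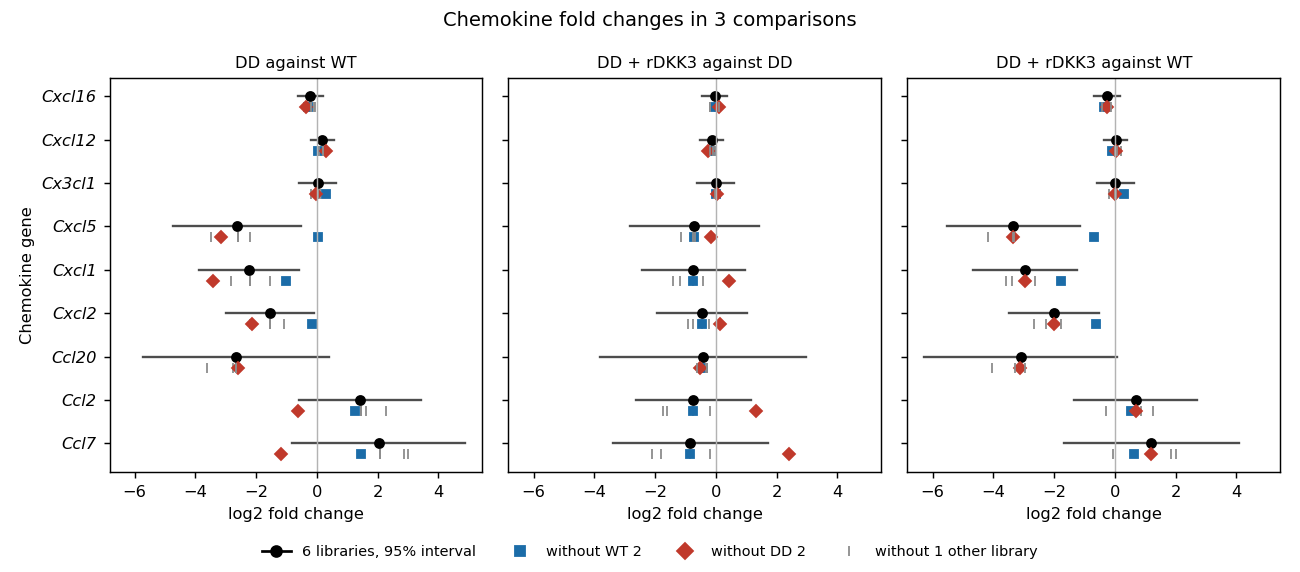
log2 fold change (horizontal axis) of the 9 tested chemokines in the 3 comparisons; black points and lines are the estimate and 95% interval from 6 libraries, blue squares the value without WT 2, red diamonds without DD 2 and grey ticks without each other library. Without WT 2, Cxcl5 in DD against WT moved from -2.63 to 0.03, and without DD 2, Ccl2 moved from 1.43 to -0.63; the value of Ccl20 without WT 2 is not drawn because WT 1 had 0 counts.

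DD + rDKK3 was set against DD to ask whether added DKK3 changes these transcripts in knockout acini. All 9 estimates were below 0, from -0.84 for Ccl7 to -0.01 for Cx3cl1, and none was called, as was none of all genes (0%). At an unadjusted p under 0.05 the count was 0 of 9 members against 1.98% of all genes, and limma-voom also called 0 members. DESeq2 gave an adjusted p to 3 of the 9 and called none of these, and none of the 9 when its p-values were adjusted over all genes. The groups did not overlap for Cxcl5 and Ccl20, 2 of 9, while 29.5% of all genes showed the same. Cxcl1 had a log2 fold change of -0.74 (95% interval -2.44 to 0.97), Cxcl5 -0.71 (-2.84 to 1.43) and Ccl2 -0.74 (-2.64 to 1.16). With all libraries, no estimate moved the CXCR2 ligands toward the WT mean.

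Cultures with the same number behaved differently. From DD 2 to DD + rDKK3 2 the log2 ratio was -1.04 for Cxcl1, -1.12 for Cxcl2, -1.07 for Cxcl5, -0.98 for Ccl2 and -1.09 for Ccl7. Each of these genes was thus about as much lower in the treated culture as the others. From DD 1 to DD + rDKK3 1 the same genes gave 0.01, 0.36, -0.19, 0.33 and 0.97. Without DD 2 the log2 fold change of DD + rDKK3 against DD was 0.44 for Cxcl1, 0.14 for Cxcl2, 1.31 for Ccl2 and 2.40 for Ccl7, and stayed below 0 for Cxcl5 (-0.16), Ccl20 (-0.52) and Cxcl12 (-0.25). The labels do not say that same-numbered cultures shared an animal.

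In DD + rDKK3 against WT, the treated knockout acini lay lower for all 4 genes that peaked in WT 2. This comparison shares its WT libraries with that of DD against WT. Cxcl5 differed by -3.33 on the log2 scale (SE 0.942, p 0.00823), Cxcl1 by -2.97 (SE 0.738, p 0.00424), Ccl20 by -3.10 (SE 1.37, p 0.0545) and Cxcl2 by -2.00 (SE 0.64, p 0.0151). None was called (edgeR adjusted p 0.321 for Cxcl1, Cxcl2 and Cxcl5), beside 0.0475% of all genes, and 3 members had an unadjusted p under 0.05 against 15.3% of all genes. The groups did not overlap for Cxcl1, Cxcl2, Cxcl5 and Cxcl16, 4 of 9 members, beside 55% of all genes. Cxcl1 was called in edgeR when a term for library 2 of the knockout groups was added (adjusted p 0.0316). That contrast sets the fitted level of library 1 of DD + rDKK3 against both WT libraries. It does not estimate the difference between the groups. Without the low-count filter the 4 genes Cxcl1, Cxcl2, Cxcl5 and Ccl20 were called.

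Without WT 2 the values were -1.76 for Cxcl1, -0.62 for Cxcl2 and -0.68 for Cxcl5, and Ccl20 was at least 1.45-fold higher in DD + rDKK3 than 3 counts in WT 1. Of the 3 CXCR2 ligands, Cxcl5 differed most over all libraries and Cxcl1 without that library. Ccl2 stood at 0.69 (SE 0.866) and Ccl7 at 1.20 (SE 1.24), and without DD + rDKK3 2 at -0.28 and -0.05. Cxcl12, Cxcl16 and Cx3cl1 gave 0.04, -0.25 and 0.01.

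The receptors of the neutrophil, CCR6 and CCR2 ligands were nearly absent from the cultures, and others were detected. Of 23 chemokine receptor genes, 5 passed the filter, and none was called in any comparison. Cxcr2 reached at most 0.3527 CPM, Ccr6 at most 0.05378, and Ccr2 had 0 counts in every library, which allows up to 3 counts in each. Cxcr4, the receptor of CXCL12, ran from 0.4225 to 1.721 CPM. The highest mean CPM belonged to Ackr4, a scavenger of CCL19 and CCL21, Ccrl2, a non-signalling receptor that binds chemerin, and Ccr1, and these 3 also had the highest median RPKM of the list (0.7401, 2.089 and 1.058). Ccrl2 was 7.564 and 7.586 CPM in WT and 4.644 to 5.546 in the Dkk3-null libraries, with a DD against WT log2 difference of -0.59 (SE 0.226, p 0.0318, adjusted p 0.586). Ackr3 stood at 3.144 and 3.301 CPM in WT and 0.6152 and 2.234 in DD (log2 fold change -1.20, SE 0.592), and Ackr4 between 4.814 and 7.113 over all libraries. Ccr1, a receptor of monocytes and macrophages, had 6.287 CPM in WT 1, 8.23 in DD 2 and 4.894 with rDKK3 2, and at most 1.109 elsewhere.

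Of 28 other chemokine genes, 12 were tested and none was called, with 6 estimates higher and 6 lower in DD than in WT and a median log2 fold change of -0.11, beside 0.02 for all genes tested. In DD + rDKK3 against DD, 11 of the 12 estimates were lower, with a median of -0.301 beside -0.003 for all genes tested. DD 2 was the highest library for 9 of the 23 detected genes of the list. The genes with the highest mean CPM were Ccl6, Ccl9 and Pf4, and these 3 also had the highest median RPKM of the list (15.11, 4.417 and 4.978). Ccl6, a CCR1 ligand of myeloid cells, had 49.81 and 6.954 CPM in WT, 11.26 and 98.65 in DD, and 19.28 and 35.66 with rDKK3. Ccl9, its close relative, had 42.14 and 3.02 CPM in WT and 48.21 in DD 2. These genes were thus high in WT 1 and DD 2 and low in WT 2, unlike the CXCR2 ligands. Ccl27a, with the smallest p of the list in DD against WT, had a log2 fold change of -1.08 (SE 0.461, p 0.0488, adjusted p 0.586). Cxcl11, Ccl1, Ccl17, Ccl26 and Xcl1 had 0 counts in all libraries.

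Genes that act on chemokine proteins were all expressed. All 7 were tested and none was called. Adam10 and Adam17, the sheddases that release CXCL16 and fractalkine from the membrane, ran from 350.1 to 475 and from 46.27 to 64.13 CPM, and Adam17 was 0.31 higher in DD on the log2 scale (SE 0.15, p 0.0746). Dpp4, a peptidase that trims the ends of several chemokines, was 8.056 and 10.18 CPM in WT, 6.152 and 4.879 in DD, and 5.07 and 4.464 with rDKK3. Its WT libraries lay above all others, with a DD against WT log2 difference of -0.73 (SE 0.241, p 0.0177, adjusted p 0.586).

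The summed CPM of NF-kB pathway genes was next to highest in WT 2, where Cxcl1, Cxcl2 and Cxcl5 peaked. Of 19 genes, 18 were tested, 12 were higher in DD than in WT, none had an unadjusted p under 0.05, and the median log2 fold change was 0.04. That sum was 590.9 CPM in WT 2, 606.5 in DD + rDKK3 2 and 473.4 to 570.9 elsewhere. Of the 19 genes, 4 were highest in WT 2 (Icam1, Nfkbia, Tnfaip3 and Relb) and 7 in DD + rDKK3 2. The part of NF-kB in the WT 2 peak was not tested. Nfkb1 was 0.33 higher in DD (SE 0.179, p 0.108) and Birc3, an inhibitor of apoptosis, 0.29 higher (SE 0.173, p 0.129). Of 21 genes of inflammatory inputs, 17 were tested, with 10 higher and 7 lower in DD and a median log2 fold change of 0.08. Tlr2, a receptor for bacterial lipoproteins, was 9.431 and 10.68 CPM in WT and 3.881 to 5.593 in the Dkk3-null libraries (log2 fold change -1.17 in DD, SE 0.231, p 0.0011, adjusted p 0.405). Csf1, the macrophage growth factor, had 16.41 and 15.8 CPM in WT, 21.91 and 60.67 in DD, and 26.3 and 63.84 with rDKK3 (1.35 in DD, SE 0.531, p 0.0354). Its peaks were in the libraries where Ccl2, Ccl7 and the fibroblast markers peaked.

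Interferon targets, which often accompany Cxcl10, leaned lower. Of 15, 12 were tested, 10 were lower in DD than in WT and 4 of these had an unadjusted p under 0.05, beside 8.26% of all genes in either direction, with a median log2 fold change of -0.52 and none called. The summed CPM of the list was 130.4 in WT 1, 88.64 in WT 2 and 67.53 to 79.64 in the Dkk3-null libraries, and 9 of its 15 genes were highest in WT 1. Irf1, an interferon-induced factor, was -0.59 (SE 0.179, p 0.0117) and Psmb8, an immunoproteasome subunit, -1.39 (SE 0.484, p 0.0222), both at an adjusted p of 0.586 in edgeR. Psmb8 had 30.36 and 11.8 CPM in WT, 5.064 and 11.05 in DD, and 7.658 and 8.229 with rDKK3, and without WT 1 its log2 fold change was -0.54. Of 10 glucocorticoid targets, 5 were higher and 5 lower, with a median log2 fold change of -0.08. Dusp1, a phosphatase of MAP kinases, was 0.78 higher in DD (SE 0.235, p 0.0112) and Fkbp5, a chaperone of the glucocorticoid receptor, 0.60 higher (SE 0.187, p 0.0134). Of 6 genes of mRNA decay, 4 were higher, with a median of 0.13. Zfp36, which encodes tristetraprolin, a protein that destabilises chemokine and cytokine mRNA, had 15.91 and 58.72 CPM in WT, 74.06 and 88.42 in DD, and 82.34 and 94.23 with rDKK3. Both WT libraries lay below the rest, with a DD against WT log2 difference of 1.11 (SE 0.485, p 0.0527, adjusted p 0.586). Zfp36 was lowest in WT 1, and the CXCR2 ligands were highest in WT 2. The part of Zfp36 in the ligand levels was not tested.

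Marker lists of the cells present were counted in the same fit, and no marker was called. In DD against WT the median log2 fold change was 1.64 over 12 fibroblast markers (12 higher, and -0.43 without DD 2), 0.35 over 13 macrophage markers (12 higher) and 0.13 over 9 endothelial markers (7 higher). It was 1.63 over 2 mesothelial markers, -0.43 over 12 acinar markers (9 lower) and 0.04 over 7 ductal markers. No neutrophil or lymphocyte marker was abundant enough to test. The sum of 14 macrophage markers was 285.5 CPM in DD 2 but 74.11 in DD 1, beside 153.4 and 61.67 in WT. DD 1 thus lay between the WT libraries in that sum. Named by the smallest p in each list were Fbn1 (2.63, SE 0.967) and Pdpn (1.26, SE 0.563) for fibroblasts, Cd68 (0.30) and Csf1r (0.62) for macrophages, Kdr (0.34) and Esam (-0.28) for endothelium, Msln (1.53, SE 0.362) and Wt1 (1.73) for mesothelium, Cela2a (-0.93, SE 0.322) for acinar cells, and Epcam (-0.32) and Sox9 (0.20) for ducts. Fbn1, Pdpn, Csf1r and Wt1 had DD 2 and DD + rDKK3 2 as their highest pair of libraries, as did Ccl2 and Ccl7. The same pair was highest for all 12 fibroblast markers, 9 of 14 macrophage markers and 1 of 5 mesothelial markers.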

How the data were processed

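Bulk RNA-seq of 6 acinar cultures (3 groups of 2) was measured with a strand-specific paired-end protocol. The deposited values are raw counts per gene, made by the authors with STAR 2.7.9a on GRCm39 and the basic GENCODE M32 annotation, counting alignments over exons by strand in union mode without secondary alignments and summing exons per gene. The processing notes also name Picard 2.19.2, R 4.2.2 and DESeq2 1.38.0, with which the authors tested the counts. Read pairs that fit equally well to near-identical genes cannot be assigned by such counting, and a gene count does not show which exon was transcribed.

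The table held 57045 features, of which 92 spike-in rows with 0 counts were left out. Genes were filtered with filterByExpr (minimum count 10, minimum total 15), scaled by TMM and fitted in edgeR 4.0.16 (R 4.3.3) by the quasi-likelihood model with legacy dispersion over all 6 libraries. Residual degrees of freedom were 3 and prior degrees 4.634, at a common biological variation (BCV) of 21.48%. Two-sided p-values were adjusted by Benjamini-Hochberg over 14738 genes and called under 0.05. SE is the log2 fold change divided by the square root of F, log2 CPM used a prior count of 2, and the detection floor was 3 counts, 0.142 to 0.2947 CPM, which covers counting error only. Exon lengths came from all transcripts of GENCODE M39 on GRCm39, which can be longer than the gene models counted. Alternatives used DESeq2 1.42.0 and limma-voom (limma 3.58.1), other scaling and filters, a term for library 2 of the knockout groups, and leaving out each library. The scripts were tested on simulated counts.

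Named genes are the 10 chemokines, the 3 genes of highest mean CPM in the lists of other chemokines and receptors, the 2 genes of each list with the smallest p in DD against WT, and the 2 protein-coding genes nearest in profile to each of the 3 most variable members. One gene that this rule names is not reported here. Other genes were named after their values were seen. The members and lists were chosen with earlier results of these data known. No animals are named for the libraries, which are labelled as separate samples, so p-values measure the spread between these samples, which may be technical. Replicates differed beyond counting noise (chi-square divided by its degrees of freedom was 30.96 for WT, 65.68 for DD and 22.96 for the treated libraries).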

Additional observations from a re-analysis of the deposited data

How the results depend on the processing

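Of 255 values of the members' log2 fold changes with an adjusted p under other settings, 238 kept their direction and their side of the threshold, and of 160 with 1 library left out, 144 did. DESeq2 gave no adjusted p to 12 more values, 6 of 9 members in each comparison of DD + rDKK3. No members were called under DESeq2 with p-values adjusted over all genes (added after seeing the data), limma-voom, either other scaling, the minimum count of 30, the fit of only the groups compared, edgeR without legacy dispersion (added after seeing the data) or any left-out library. Ccl20 did not pass the minimum count of 30 and was not tested there. Without the low-count filter 6 members were called in DD against WT and 4 in DD + rDKK3 against WT. Over all genes, the calls were then 528 in DD against WT, 73 in DD + rDKK3 against DD and 788 in the remaining comparison, and in that order 77, 5 and 61 with DESeq2 (77, 5 and 34 adjusted over all genes), while limma-voom called 3 in the last. The cause was not tested. The difference between libraries 2 and 1 correlated between DD and DD + rDKK3 (r = 0.65 across 14738 genes, which are not independent), but with 2 pairs and no animal named the samples share only a number. A replicate term was coded for library 2 of the knockout groups alone. With it, each comparison against WT set the fitted level of library 1 of a knockout group against both WT libraries. It thus did not estimate the difference between groups. In that fit 20 genes were called in DD against WT and 15 in DD + rDKK3 against WT, where 1 member (Cxcl1) was called. Directions turned for Ccl2 and Ccl7 in DD against WT (-0.21 and -0.29). They also turned for Ccl2, Ccl7 and Cx3cl1 in DD + rDKK3 against WT (-0.64, -0.68 and -0.004). These values are among the 255 and are no check of the group differences. Under limma-voom Ccl7 turned to 0.17 in DD + rDKK3 against DD. With library size alone the median of all genes in DD against WT was 0.22, beside 0.02 with TMM. By CPM without division by length, Cx3cl1 moved to rank 5, Ccl2 to 7 and Ccl7 to 8. With exons of basic transcripts (added after seeing the data), Cxcl1 moved to rank 2, Cxcl12 to 3 and Cxcl5 to 4.

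Leaving out each library in turn gave 2 to 6 calls over all genes for DD against WT and, for DD + rDKK3 against WT, 2 to 9. In DD against WT the log2 fold change then ran from -3.48 to 0.031 for Cxcl5, -0.63 to 2.28 for Ccl2, -1.19 to 3.01 for Ccl7 and -0.19 to 0.31 for Cx3cl1. In DD + rDKK3 against DD it ran from -1.42 to 0.44 for Cxcl1, -0.90 to 0.14 for Cxcl2, -0.20 to 0.11 for Cxcl16, -1.73 to 1.31 for Ccl2, -2.12 to 2.40 for Ccl7 and -0.072 to 0.036 for Cx3cl1. In DD + rDKK3 against WT it ran from -0.28 to 1.26 for Ccl2, -0.052 to 2.02 for Ccl7, -0.088 to 0.19 for Cxcl12 and -0.19 to 0.30 for Cx3cl1. A lone library was assumed to vary like the other groups. Without WT 2, Ccl20 has no fitted value against WT. Depth limits Cxcl10 and Ccl20, whose counts were at or under 13 in all libraries but WT 2.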

Other observations

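Of the genes that stood at 3 times or more every other library in WT 2, Csf3 had 0.1965 CPM in WT 1, 3.793 in WT 2, 0.142 and 0.3527 in DD, and 0.1584 and 0.1076 with rDKK3. G-CSF is the cytokine that drives neutrophil production, so Cxcl1, Cxcl2 and Cxcl5 and the factor that expands neutrophils were highest in the same culture. Cxcl3, also a CXCR2 ligand, was not, at 3.537 CPM in WT 1 and 2.458 in WT 2. Vnn3 had 12.92 CPM in WT 2 and at most 2.508 elsewhere, and Rasal1, a regulator of RAS activity, had 5.549 CPM in WT 2 and at most 1.849 elsewhere. Of the 19 listed genes of the NF-kB pathway, 4 were highest in WT 2, 7 in DD + rDKK3 2 and the others elsewhere. The 4 were Icam1, Nfkbia, Tnfaip3 and Relb. Tnfaip3 had 5.108 to 13.66 CPM in the other libraries and 17.28 in WT 2, and Relb 14.52 to 18.01 and 18.47 in WT 2. Icam1, the endothelial and epithelial ligand of leukocyte integrins, had 21.99 CPM there and 10.03 to 12.11 elsewhere, and Nfkbia, the inhibitor of NF-kB, had 75.09 CPM there and 36.35 to 59.73 elsewhere. The cytokines Il1b and Csf2 were at or under 0.09824 CPM in all libraries. Tnf, also scarce, was highest in WT 2, at 1.756 CPM beside 0.3313 to 0.9406 elsewhere. Of the 21 listed genes of inflammatory inputs, 4 were highest in WT 2 and 5 in DD 2. These genes were chosen after their values were seen, and no test was made.

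Ccl6, Ccl9, Pf4 and Ccr1 had their highest values in WT 1 and DD 2. The complement genes C1qa (19.55, 22.81 and 18.34 CPM) and C1qb (13.66, 20.52 and 13.82 CPM) were high in WT 1, DD 2 and DD + rDKK3 2. Lyz2, a lysozyme of myeloid cells, had 36.25 CPM in WT 1, 133 in DD 2 and 85.41 with rDKK3 2, while the fibroblast gene Col1a1 had 31.93 CPM in WT 1 and 252.1 in DD 2. Ppbp was abundant in WT 1 alone, at 27.41 CPM beside at most 2.998 elsewhere. Cxcl14, a chemokine expressed by fibroblasts and epithelia, followed the fibroblast markers, with 4.421 and 0.7024 CPM in WT, 1.278 and 23.99 in DD, and 3.591 and 16.3 with rDKK3.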
